A study of Homo sapiens with 27 samples.

Results

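Metallothioneins were followed as 6 genes, MT1E, MT1F, MT1G, MT1M, MT1X and MT2A, in control and RIPK2-knockout populations of 3 human prostate cancer cell lines. The members were taken by gene symbol from 3 tables of raw read counts that together held 27546 symbols, and the mitochondrial genes, whose symbols start with MT and a hyphen, were kept out. All 6 were listed for 22Rv1, and 5 each for DU145 and PC3, where MT1G was not listed. No listed symbol had 0 counts in every library of its line. MT1G may therefore have had no reads in DU145 and PC3, which the sources used here do not state. A filter on low counts left 5 of the members to test in 22Rv1 (not MT1M), 5 in DU145 and 3 in PC3 (MT1F, MT1M and MT2A).

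Metallothioneins are small cysteine-rich proteins that hold zinc and copper ions in clusters of metal and sulfur, and they buffer free zinc and take up cadmium. Their genes are switched on by the zinc-sensing transcription factor MTF1, which binds metal response elements in their promoters, and many of them also respond to glucocorticoids and oxidative stress. The healthy prostate is an organ of unusually high zinc content, and the low zinc content of prostate tumours is one of the oldest observations on the disease.

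The RNA came from bulk cultures of 22Rv1, DU145 and PC3 and was sequenced as strand-specific mRNA libraries. 22Rv1 comes from a prostate tumour xenograft, and DU145 and PC3 come from a brain and a bone metastasis. The control of each line carried control gRNA #1 and is labelled wild type. The knockout populations, labelled RIPK2 knockout, carried RIPK2 gRNA #1 or #10 in 22Rv1, and RIPK2 gRNA #2 or #10 in DU145 and in PC3, with 3 libraries in each of the 9 groups and 27 in all. RIPK2 is the kinase that relays signals from the bacterial sensors NOD1 and NOD2 to NF-kappaB. Whether a guide population was a clone or a pool is not given in the sources used here. Nothing says that the 3 libraries of a group came from separate cultures, so p-values measure the spread between these libraries, which may be technical. In bulk RNA, fewer cells with a transcript and less of it per cell cannot be told apart.

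Libraries held 17958558 to 20650819 counts. Levels are given as counts per 1000000 (CPM) of the library total, adjusted by TMM factors within each line. RIPK2 itself was lower than in the control of the line in 22Rv1 gRNA 1 (52.1% of control), 22Rv1 gRNA 10 (32.3%), DU145 gRNA 2 (27.9%), PC3 gRNA 2 (34.2%) and PC3 gRNA 10 (45.1%). The fall was smallest in the group labelled DU145 gRNA 10, at 34.7 ± 1.51 CPM (SD, n = 3) against 42.4 ± 2.67 CPM, or 81.9% of control. It did not pass the test there (log2 fold change -0.29, SE 0.11, edgeR adjusted p = 0.0614), and the call was gained in 5 of 15 alternatives. The libraries of this group (33.4 to 36.4 CPM) all lay below those of its control (39.4 to 44.4 CPM). The prostate marker KLK3 stood at 20.1 CPM in 22Rv1 control and 0 CPM in DU145 and PC3 control, and the mesenchymal marker VIM at 13.3, 624 and 1462 CPM. Of 4 genes of cell types the cultures should lack, PTPRC, CD3E, PECAM1 and ALB, the summed level per library was at most 0.403 CPM in DU145 and 10.1 CPM in PC3, where PECAM1 held most of it. In 22Rv1 ALB made up nearly all of the sum, which ran from 98.1 to 117 CPM in control, from 41.9 to 130 CPM with gRNA 1 and from 2009 to 2091 CPM with gRNA 10, and its part in the results was not tested. Mitochondrial transcripts took 16.7% of the counts of 22Rv1 gRNA 1 replicate 3 and 0.515% to 4.69% of the other libraries, and this library and DU145 gRNA 2 replicate 3 correlated less with their replicates (0.973 to 0.982, against 0.993 to 0.998 for the other pairs).

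The 6 genes lie within 76.0 kb of chromosome 16 (GRCh38, GENCODE 29), with other metallothionein genes and pseudogenes, such as MT1A and MT1L, between them. In order they are MT2A (chr16:56608199-56609497), MT1E (chr16:56625475-56627112), MT1M (chr16:56632233-56633986), MT1F (chr16:56657694-56660698), MT1G (chr16:56666731-56668065) and MT1X (chr16:56682424-56684196), with MT1G on the minus strand and the other 5 on the plus strand. Each gene has 3 exons and 2 introns, and each coding sequence has 186 bases. The 4 coding sequences below, of MT2A and of 3 of the MT1 isoforms, show how alike the genes are; capitals mark the cysteine codons TGC and TGT, of which each has 20 among 61 residues (32.8%).
MT2A: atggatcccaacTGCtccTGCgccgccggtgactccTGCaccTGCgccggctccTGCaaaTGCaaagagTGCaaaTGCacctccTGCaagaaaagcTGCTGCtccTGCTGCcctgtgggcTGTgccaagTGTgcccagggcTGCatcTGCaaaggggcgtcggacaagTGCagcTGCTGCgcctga
MT1E: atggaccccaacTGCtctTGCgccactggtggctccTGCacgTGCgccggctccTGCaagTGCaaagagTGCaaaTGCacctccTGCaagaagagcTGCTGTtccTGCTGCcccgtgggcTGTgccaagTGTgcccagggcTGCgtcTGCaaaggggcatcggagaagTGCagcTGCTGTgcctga
MT1G: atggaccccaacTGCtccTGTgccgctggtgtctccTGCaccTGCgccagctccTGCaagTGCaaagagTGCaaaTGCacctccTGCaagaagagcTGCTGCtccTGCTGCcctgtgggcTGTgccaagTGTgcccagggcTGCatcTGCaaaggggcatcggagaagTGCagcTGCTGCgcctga
MT1M: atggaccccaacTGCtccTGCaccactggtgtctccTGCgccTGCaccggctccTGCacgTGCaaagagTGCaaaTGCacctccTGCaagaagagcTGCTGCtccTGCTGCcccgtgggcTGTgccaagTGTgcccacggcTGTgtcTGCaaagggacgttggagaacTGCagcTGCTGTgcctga
Over the 15 pairs of members, coding sequences were 88.7% to 95.2% identical at the base level, with MT2A and MT1G 9 bases apart and MT2A and MT1E 14 bases apart. Reads can still tell the genes apart where they reach the less alike ends of the transcripts. No stretch of 150 bases, the read length in the labels, was shared exactly with another annotated transcript in MT2A, MT1E, MT1F, MT1G or MT1M, but 20.2% of the 50-base stretches of MT1G and 45.1% of those of MT1X were. Another annotated gene on the same strand covers 36.7% of the MT1X transcript. How the authors' counting treated reads that fit more than 1 gene is not given in the sources used here, so the counts of MT1X, and to a lesser degree of the rest, are uncertain.

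The region before the start of transcription was looked at because these genes share their regulator. The RefSeq promoter table for GRCh38.p14 held 2 of the 6 members, MT2A and MT1X, printed here as the 250 bases before the start on the plus strand, with the metal response element cores, TGCACNC or TGCGCNC on either strand, in capitals.
MT2A (chr16:56608334-56608583): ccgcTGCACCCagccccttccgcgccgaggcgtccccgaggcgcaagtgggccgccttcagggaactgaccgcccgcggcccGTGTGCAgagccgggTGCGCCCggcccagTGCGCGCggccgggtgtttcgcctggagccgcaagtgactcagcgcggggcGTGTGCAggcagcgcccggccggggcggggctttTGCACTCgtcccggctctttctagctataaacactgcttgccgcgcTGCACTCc
MT1X (chr16:56682220-56682469): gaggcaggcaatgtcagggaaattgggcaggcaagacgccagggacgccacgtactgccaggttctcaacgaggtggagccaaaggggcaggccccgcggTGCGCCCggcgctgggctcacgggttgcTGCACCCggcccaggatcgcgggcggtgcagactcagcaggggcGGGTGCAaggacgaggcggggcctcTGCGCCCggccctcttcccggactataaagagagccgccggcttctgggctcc
Over the whole 300-base window of the table, MT2A held 8 cores and MT1X held 4. At least 1 core was found in 29.55% of 35116 promoters of the same length, at least 4 in 0.6% and at least 6 in 0.07%. The RefSeq starts lie inside the GENCODE gene spans given above, so the stretch printed for MT2A is within that span and the end of the stretch for MT1X overlaps it. On the printed strand alone the counts were 5 and 3, where 17.02% of promoters held at least 1. None of the MT2A cores overlapped another motif searched, and 1 of MT1X overlapped a GC box (GGGCGG). Both promoters held 2 GC boxes and 1 TATAAA, found in 44.95% and 11.53% of promoters, and MT2A also held 1 AP-1 motif (TGANTCA), found in 7.71%.

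In the control libraries MT2A was the most abundant member in each line. Per kilobase of transcript, MT2A stood at 324 CPM in DU145 control, 124 in PC3 control and 92.8 in 22Rv1 control, and it ranked highest among the listed members in all 9 groups. What came after it set the lines apart. 22Rv1 control had MT1G at 64.4 CPM per kilobase, then MT1E at 11.2 and MT1F at 7.60. DU145 control had MT1E at 208 CPM per kilobase and MT1F at 13.8, and in PC3 control no other listed member passed 1.14 CPM per kilobase (MT1X). The order among the low members MT1F, MT1M and MT1X turned with the transcript length used in DU145 control and in both PC3 guide groups.

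DU145 control differed from 22Rv1 control in 5 of 5 members compared, beside 75.9% of all 16322 genes, in a model over the 27 libraries. The call of MT1X (0.75, edgeR adjusted p = 0.0307) was lost in 5 alternatives, which were DESeq2 and leaving out 22Rv1 control replicate 1 or 2 or DU145 control replicate 1 or 3 (adjusted p from 0.0565 to 0.184). MT1E was 4.22 log2 units higher (SE 0.14, edgeR adjusted p = 7.61e-18) and MT2A 1.81 units higher (adjusted p = 7.35e-12). PC3 control differed from 22Rv1 control in 4 of 5 members, beside 80.5% of all genes, and from DU145 control in 5 of 5, beside 75.9%. MT2A was 0.57 log2 units higher in PC3 than in 22Rv1 (adjusted p = 0.000567), while MT1F was 3.55 units lower. MT1E had 0 counts in the 3 PC3 control libraries, and 3 counts per library (0.150 CPM) were taken as the floor for PC3. In CPM scaled within each line, it was then at least 52.7-fold higher in 22Rv1 control and at least 980-fold higher in DU145 control. Over the 9 libraries of PC3 a single read, in a gRNA 2 library, was assigned to MT1E. Each line is in a table of its own, so line and table cannot be told apart.

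**Figure D1:**
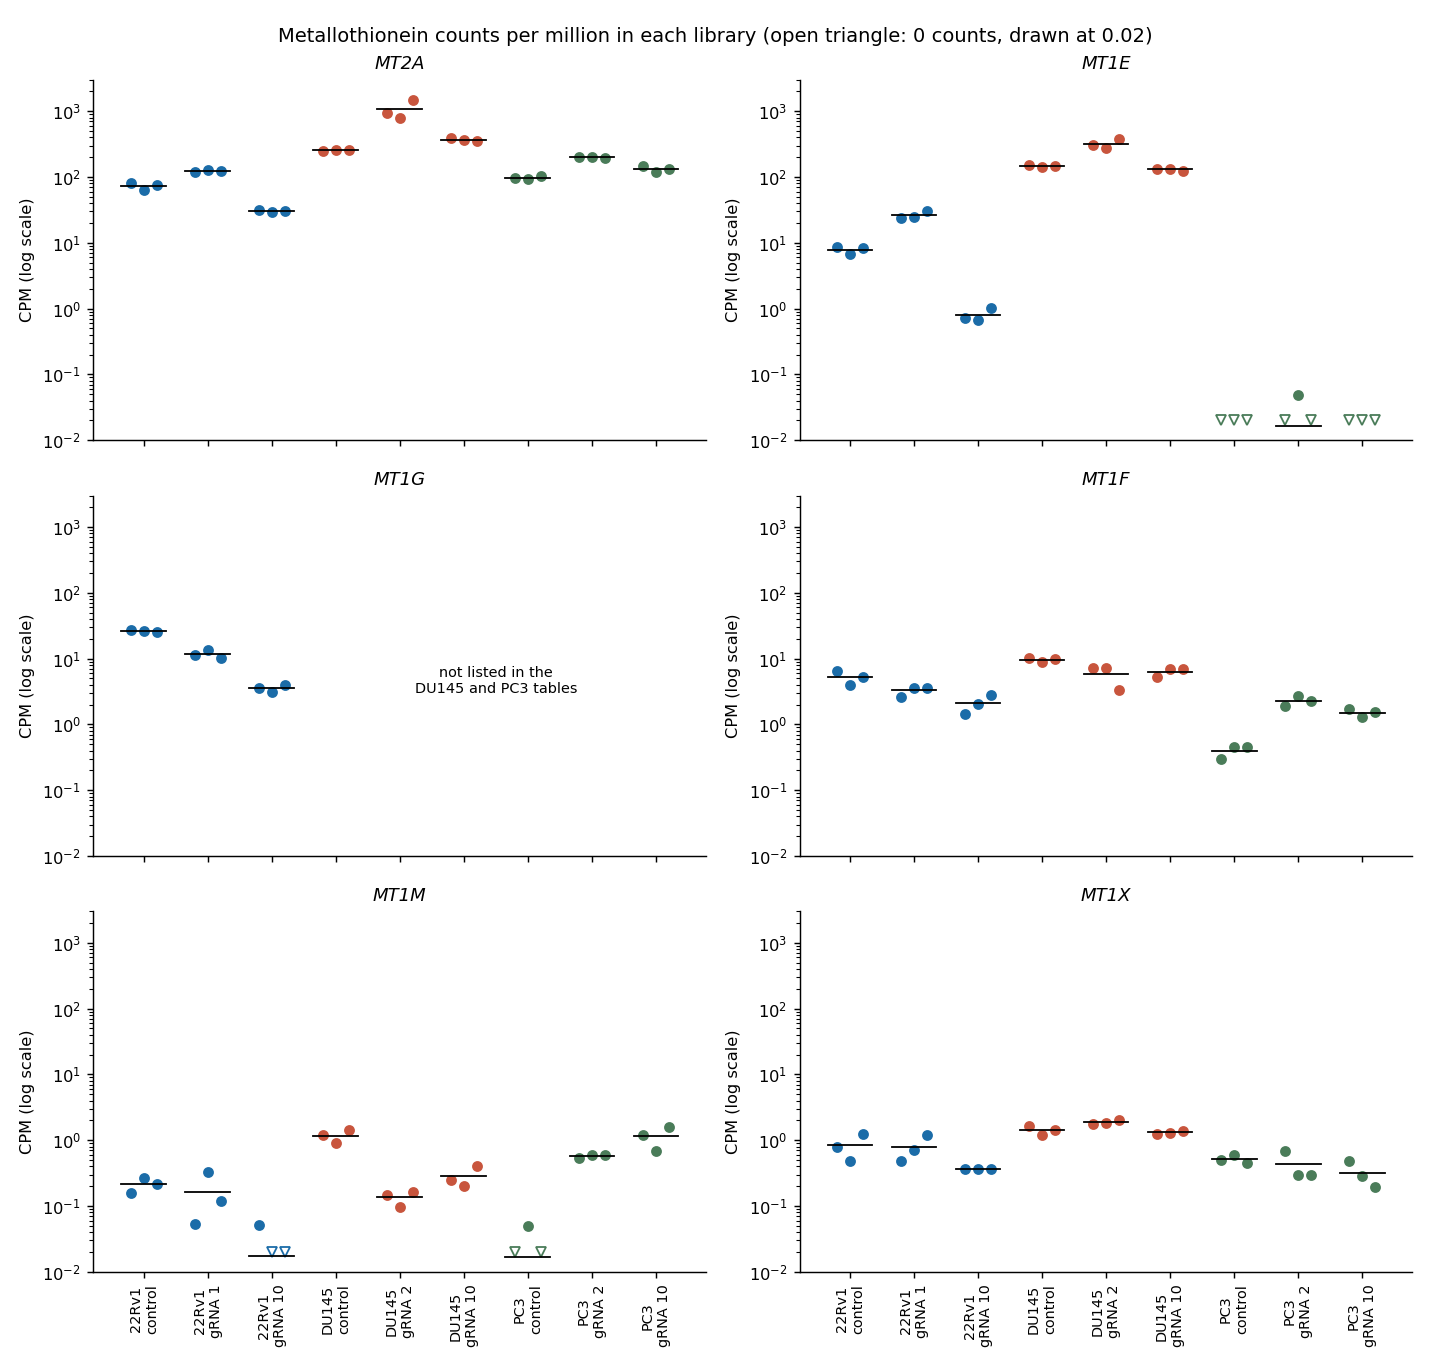
Level of each metallothionein in every library, in CPM on a log axis, with 1 point per library and a bar at the group mean of 3. MT2A was highest in DU145 gRNA 2 (788 to 1465 CPM), MT1E ran from 0 counts in PC3 control to 373 CPM in a DU145 gRNA 2 library, and MT1G was listed for 22Rv1 only.

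MT2A, the isoform usually most abundant in human tissues, was higher than control in 5 of the 6 guide populations and lower in 22Rv1 gRNA 10. In 22Rv1 its libraries held 1504, 1191 and 1393 counts in control, 2232, 2373 and 2097 with gRNA 1, and 613, 562 and 600 with gRNA 10. The 3 groups did not overlap, with control between the 2 guide populations. MT2A rose by 0.76 log2 units with gRNA 1 (SE 0.10, edgeR adjusted p = 0.000134) and fell by 1.26 with gRNA 10 (SE 0.10, adjusted p = 4.85e-06), to 41.8% of control.

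In DU145, MT2A stood at 250, 253 and 261 CPM in control, at 927, 788 and 1465 CPM with gRNA 2, and at 391, 360 and 357 CPM in the libraries labelled gRNA 10. Both guide populations lay above control in every library, and replicate 3 of gRNA 2, the library that stands apart, was the highest. With gRNA 2 the level was 4.16-fold that of control (log2 fold change 2.06, SE 0.19, edgeR adjusted p = 4.75e-05), or 1.76 on the log2 scale without that library. The rise with gRNA 10 was 0.54 log2 units (SE 0.19, adjusted p = 0.0403), and this call was lost in 7 alternatives, among them the fit without the filter on low counts and each fit that left out a control or gRNA 10 library (adjusted p from 0.0681 to 0.117).

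In PC3, MT2A had 1925, 1889 and 2054 counts in control, 4062, 4079 and 3956 with gRNA 2, and 3050, 2486 and 2794 with gRNA 10. The groups did not overlap and gRNA 2 was the highest. The log2 fold changes were 1.03 with gRNA 2 (SE 0.06, edgeR adjusted p = 1.42e-11) and 0.46 with gRNA 10 (SE 0.06, adjusted p = 1.02e-06). In CPM scaled within each line, MT2A descended over the 9 groups from DU145 gRNA 2 through DU145 gRNA 10, DU145 control, PC3 gRNA 2 and PC3 gRNA 10. Then came 22Rv1 gRNA 1, PC3 control, 22Rv1 control and 22Rv1 gRNA 10. Among neighbours in that order, PC3 gRNA 10 and 22Rv1 gRNA 1 overlapped in their libraries and the others did not. The order and any overlap between groups of different lines depend on that scaling, so nothing is concluded from them.

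MT1E, a metal-inducible isoform of the MT1 group, had the widest swing in 22Rv1. Its control libraries held 159, 125 and 158 counts, those of gRNA 1 454, 456 and 515, and those of gRNA 10 14, 13 and 20. The groups lay apart, with gRNA 1 above control and gRNA 10 below it. MT1E rose by 1.75 log2 units with gRNA 1 (SE 0.16, edgeR adjusted p = 8.99e-06) and fell by 3.28 with gRNA 10 (SE 0.20, adjusted p = 6.61e-07), to 10.3% of control, so that the 2 guide populations were 5.02 log2 units apart (adjusted p = 4.21e-08). Without 22Rv1 gRNA 1 replicate 3 the rise was 1.62.

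In DU145, MT1E had 150, 142 and 148 CPM in control, 306, 277 and 373 CPM with gRNA 2, and 134, 133 and 124 CPM in the libraries labelled gRNA 10. The gRNA 2 libraries were above control and the gRNA 10 libraries somewhat below it, without overlap. The change was 1.12 log2 units with gRNA 2 (SE 0.11, edgeR adjusted p = 4.99e-05). With gRNA 10 it was -0.17 (SE 0.10, adjusted p = 0.221), which did not pass the test across the 9 libraries and passed it without DU145 gRNA 2 replicate 3 (-0.17, adjusted p = 0.0270).

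MT1G, an MT1 isoform whose promoter is often found methylated in tumours, was listed in 22Rv1 alone and fell in both guide populations. Counts were 502, 490 and 473 in control, 213, 246 and 172 with gRNA 1, and 68, 61 and 76 with gRNA 10. The 3 groups descended in that order without overlap. MT1G fell by 1.17 log2 units with gRNA 1 (SE 0.13, edgeR adjusted p = 3.40e-05) and fell by 2.89 with gRNA 10 (SE 0.14, adjusted p = 1.02e-07), and the difference between the guides was -1.72 (adjusted p = 6.73e-06).

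MT1F, another MT1 isoform, was lower with each guide in 22Rv1, lower with gRNA 2 in DU145, and higher with each guide in PC3. In 22Rv1 it had 120, 75 and 99 counts in control, 49, 67 and 61 with gRNA 1, and 28, 39 and 55 with gRNA 10. All guide libraries were below all control libraries. The log2 fold change was -0.68 with gRNA 1 (SE 0.26, edgeR adjusted p = 0.0486) and -1.32 with gRNA 10 (SE 0.27, adjusted p = 0.00247), and the call with gRNA 1 was lost in 7 alternatives (adjusted p from 0.0549 to 0.175).

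In DU145, MT1F had 212, 182 and 199 counts in control, 144, 145 and 61 with gRNA 2, and 105, 137 and 138 in the libraries labelled gRNA 10. Both guide groups lay below control, and the count of 61 was in replicate 3 of gRNA 2. The change with gRNA 2 was -0.70 (SE 0.24, edgeR adjusted p = 0.0478), it was -0.42 without that replicate, and the call was lost in 8 alternatives (adjusted p from 0.0603 to 0.130). With gRNA 10 the change was -0.59 and did not pass (SE 0.24, adjusted p = 0.0760), while without gRNA 2 replicate 3 it passed at the same size (adjusted p = 0.000683).

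In PC3, MT1F went from 6, 9 and 9 counts in control to 39, 55 and 46 with gRNA 2 and 35, 27 and 32 with gRNA 10. Guide and control libraries did not overlap. MT1F was 2.51 log2 units above control with gRNA 2 (SE 0.27, edgeR adjusted p = 1.61e-09) and 1.91 above it with gRNA 10 (SE 0.29, adjusted p = 1.09e-06). MT1F passed the filter in PC3 through its guide libraries alone, so a difference from control was a condition for its being tested there.

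MT1M, an MT1 isoform found mainly in liver among healthy tissues, was the member nearest to the detection limit, and its values run in opposite directions in DU145 and PC3. In DU145 it had 25, 19 and 29 counts in control, 3, 2 and 3 with gRNA 2, and 5, 4 and 8 in the libraries labelled gRNA 10. Both guide groups were below control, and MT1M passed the filter there through its control libraries alone. On the log2 scale MT1M was at -3.05 against control with gRNA 2 (SE 0.38, edgeR adjusted p = 0.000289) and at -2.03 with gRNA 10 (SE 0.33, adjusted p = 0.000840). The ratio of summed counts, 8 to 73, was 0.116 after scaling for gRNA 2 (95% interval 0.0483 to 0.241, counting error only).

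In PC3, MT1M had 0, 1 and 0 counts in control, 11, 12 and 12 with gRNA 2, and 25, 14 and 33 with gRNA 10. It passed the filter through the guide libraries alone. With 1 control count the scaled ratio of summed counts was 34.7 for gRNA 2 (95% interval 5.83 to 1408) and 69.7 for gRNA 10 (12.1 to 2790). The edgeR adjusted p was 7.24e-06 and 5.89e-09, and the fitted log2 values of 4.68 and 5.68 depend on the prior count. In 22Rv1 MT1M held 12 counts over the control libraries, 9 over gRNA 1 and 1 over gRNA 10, and it was not tested.

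MT1X, the member whose transcript is shared most with another gene, did not pass the test in either guide contrast of 22Rv1 or DU145, and it was not tested in PC3. In 22Rv1 it had 15, 9 and 23 counts in control, 9, 13 and 20 with gRNA 1 and 7, 7 and 7 with gRNA 10. The gRNA 10 libraries lay below the others (change -1.20, SE 0.45, edgeR adjusted p = 0.0541), and the call was gained in 4 alternatives (adjusted p from 0.0201 to 0.0440). MT1X passed the filter in 22Rv1 through 2 control and 2 gRNA 1 libraries alone, so its testing there rested on the groups where it was higher. In DU145 MT1X ranged from 1.20 to 2.05 CPM over the 9 libraries, with changes of 0.39 and -0.10 (adjusted p = 0.153 and 0.740). In PC3 it ranged from 4 to 14 counts.

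**Figure D2:**
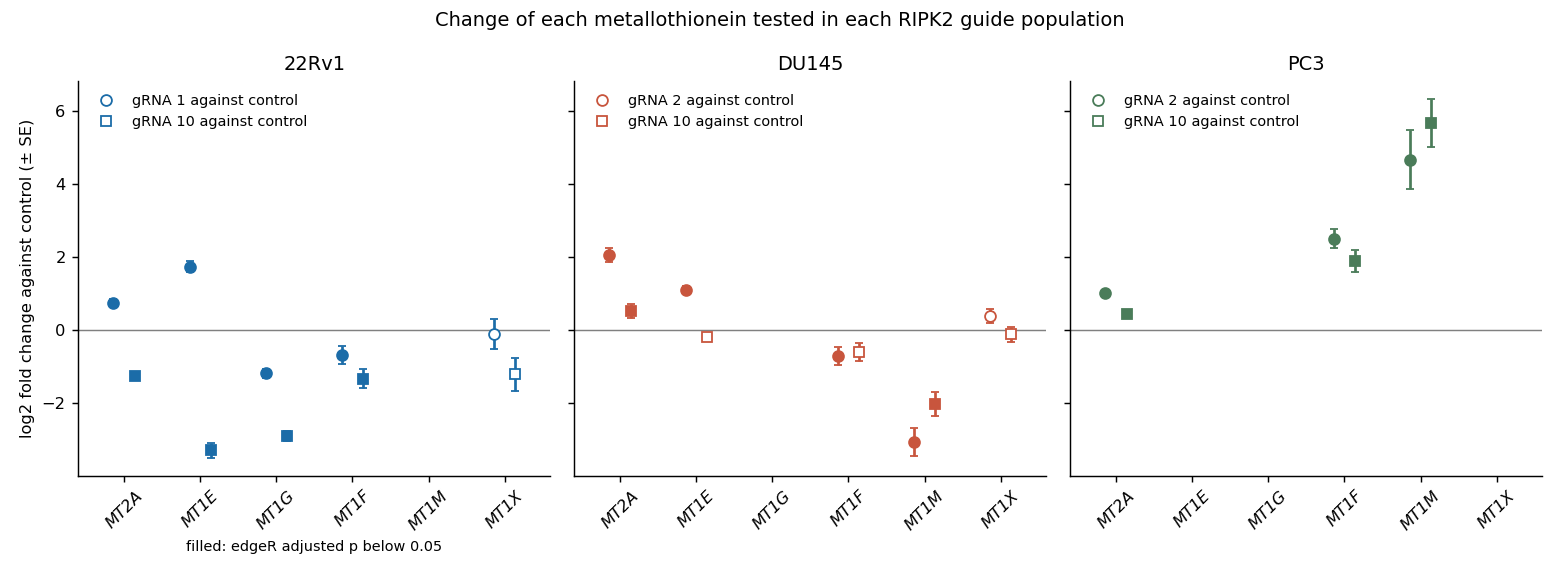
Log2 fold change of each tested member against the control of its line, with the standard error; circles stand for gRNA 1 or 2, squares for gRNA 10, and filled symbols for an edgeR adjusted p below 0.05. In 22Rv1 MT2A and MT1E lie above 0 with gRNA 1 and below it with gRNA 10, and in PC3 the 3 tested members lie above 0 with both guides.

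Counted together, 4 of the 5 members tested in 22Rv1 changed with gRNA 1, where 48.5% of all 15198 genes tested were called. MT2A and MT1E were higher, beside 25.6% of all genes, and MT1G and MT1F lower, beside 22.9%. With gRNA 10 the same number, 4 of 5, changed, beside 40.6% of all genes, and all 4 were lower, beside 20.6%. Between gRNA 10 and gRNA 1, MT1E, MT2A and MT1G were lower in the former, 3 of 5 members beside 35.6% of all genes. Both contrasts against control use the same 3 control libraries. Over the 6 listed members, the libraries of 4 did not overlap between gRNA 1 and control, those of 6 between gRNA 10 and control and those of 5 between the guides, beside 55.6%, 64.2% and 54.1% of the genes tested. The counts of 6 and 5 include MT1M, which was not tested. They also include MT1X, which passed the filter only through control and gRNA 1 libraries.

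In DU145, 4 of 5 members changed with gRNA 2, beside 34.0% of 14908 genes, with MT2A and MT1E higher and MT1M and MT1F lower. MT1M is in these counts although it could be tested in DU145 only because its control libraries held it. In the libraries labelled gRNA 10, MT2A was higher and MT1M lower, 2 of 5 members beside 40.0% of all genes, and this count is 4 without DU145 gRNA 2 replicate 3 and 1 when 1 control or 1 gRNA 10 library is left out. MT2A and MT1E were lower with gRNA 10 than with gRNA 2, by 1.52 and 1.29 log2 units (edgeR adjusted p = 0.000186 and 1.45e-05), 2 of 5 members beside 38.8% of all genes, with 19.2% lower and 19.6% higher. The libraries of 5, 4 and 4 of the 5 listed members did not overlap between gRNA 2 and control, between gRNA 10 and control and between the guides, beside 46.6%, 68.6% and 48.2% of the genes tested.

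In PC3 the 3 tested members were called with gRNA 2, beside 63.6% of 14718 genes, and with gRNA 10, beside 73.5%, but 2 of the 3 were testable only because the guide libraries held them. Between the PC3 guides, MT2A and MT1F were lower with gRNA 10 (-0.57 and -0.61, adjusted p = 3.07e-08 and 0.00685) and MT1M higher (1.00, adjusted p = 0.00597), 3 of 3 beside 73.4% of all genes, with 36.5% lower and 36.9% higher. The same 3 of the 5 listed members did not overlap in their libraries in each of the contrasts, beside 67.6%, 74.8% and 74.9% of the genes tested. MT1E and MT1X, the other listed members, were not tested. Between the guides, the call of MT1M was lost without gRNA 10 replicate 3 (0.71, edgeR adjusted p = 0.0780) and that of MT1F without gRNA 2 replicate 2 (-0.47, adjusted p = 0.0581).

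The summed level of the members followed MT2A in PC3 and MT2A with MT1E in DU145. In 22Rv1 it was 113 ± 10.6 CPM in control, 166 ± 7.62 CPM with gRNA 1 and 37.3 ± 1.95 CPM with gRNA 10 (SD, n = 3). In DU145 it was 413 ± 7.64 CPM in control, 1386 ± 404 CPM with gRNA 2 and 507 ± 21.1 CPM in the libraries labelled gRNA 10. In PC3 the sums were 98.3 ± 4.10, 202 ± 3.12 and 137 ± 14.5 CPM. The libraries of a line's 3 groups did not overlap in this sum in any of the lines.

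The make-up of the sum shifted as well. MT1G gave 23.2% of the members' counts in 22Rv1 control, 6.99% with gRNA 1 and 9.42% with gRNA 10. MT1E went from 6.95% to 15.9% with gRNA 1 and to 2.15% with gRNA 10. In DU145 the share of MT1E was 35.5% in control, 23.5% with gRNA 2 and 25.7% in the libraries labelled gRNA 10. In PC3 MT2A held 97.8% to 99.1% in every group mean.

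**Figure D3:**
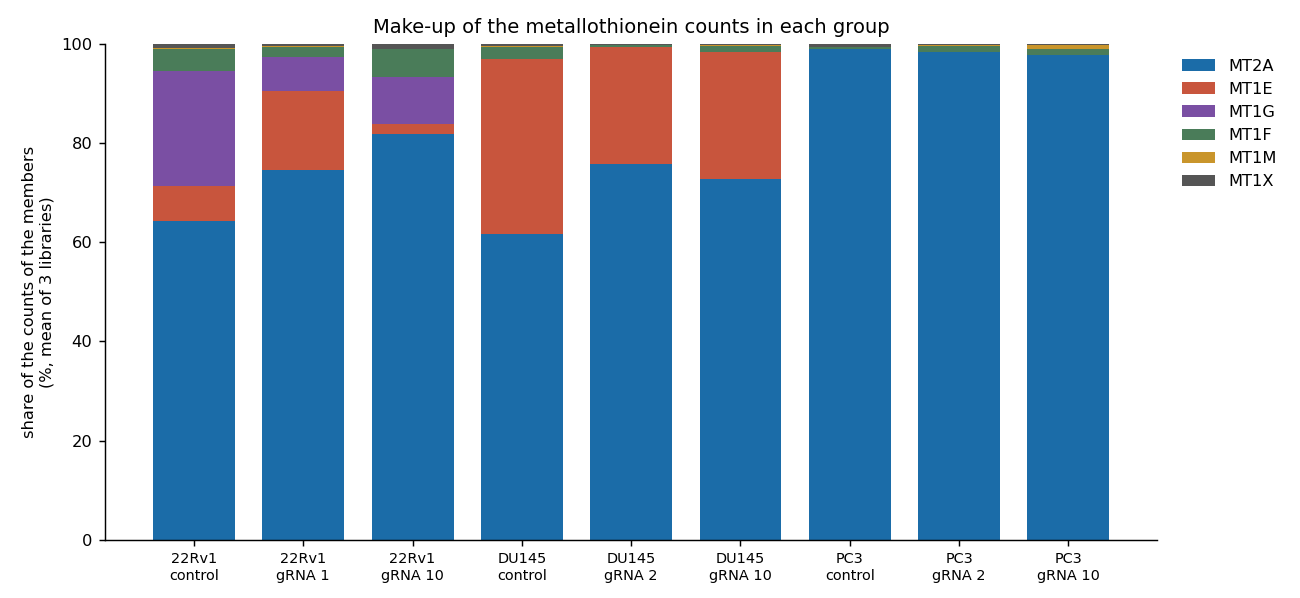
Share of each metallothionein in the counts assigned to the members, in percent, as the mean of 3 libraries per group and not corrected for transcript length. MT2A made up 61.6% to 81.8% in the groups of 22Rv1 and DU145, with MT1G a sizeable part in 22Rv1 control (23.2%) and MT1E in DU145 (23.5% to 35.5%).

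The change with the shared guide, gRNA 10, differed between lines when the difference itself was tested. Each guide was seen in a single group per line, so a difference between lines and one between single populations cannot be told apart. MT2A moved 1.79 log2 units further up in DU145 than in 22Rv1 (SE 0.20, edgeR adjusted p = 4.41e-08) and 1.68 further up in PC3 than in 22Rv1 (adjusted p = 9.36e-08), while PC3 and DU145 differed by -0.11, which did not pass (95% interval -0.48 to 0.27, adjusted p = 0.683). MT1E moved 3.10 units further up in DU145 than in 22Rv1 (adjusted p = 6.68e-10), and MT1F 3.19 further up in PC3 than in 22Rv1 and 2.47 further than in DU145. For gRNA 2, used in DU145 and PC3, MT2A rose less in PC3 (-1.04, adjusted p = 0.000123), and MT1F differed by 3.20 (adjusted p = 1.52e-06). The shares of all genes called in these comparisons of gRNA 10 were 44.7% for DU145 against 22Rv1, 47.6% for PC3 against 22Rv1 and 48.1% for PC3 against DU145, and 35.9% for gRNA 2. RIPK2 RNA stood at 81.9% of control in the libraries labelled DU145 gRNA 10, so differences that involve them set groups of unequal RIPK2 RNA side by side.

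Other metallothionein genes were counted at useful depth mainly in DU145. MT1L, annotated as a pseudogene, had 286, 259 and 303 counts in control, 421, 471 and 424 with gRNA 2, and 128, 112 and 116 in the libraries labelled gRNA 10. The 3 groups lay apart, up with gRNA 2 (0.72, edgeR adjusted p = 0.000899) and down with gRNA 10 (-1.20, adjusted p = 3.44e-05). The pseudogene MT2P1 rose with gRNA 2 (1.49, adjusted p = 0.00487) and was 0.38 higher with gRNA 10, which did not pass (adjusted p = 0.411). MT1A, an MT1 isoform, and MT1DP, a pseudogene, had changes of -0.52 and -0.45 with gRNA 2 and -0.29 and -0.53 with gRNA 10, and none of these passed. MT3, the isoform best known from brain, reached 39 counts over the 22Rv1 gRNA 1 libraries, against 9 in control and 10 with gRNA 10, with 23 of the 39 in replicate 3, the library with the high mitochondrial share.

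MTF1, the zinc sensor that drives metallothionein genes, was called in 22Rv1 with gRNA 1 and in PC3 with both guides. In 22Rv1 it fell with gRNA 1 (-0.53, SE 0.14, edgeR adjusted p = 0.0112), where MT2A and MT1E rose and MT1G and MT1F fell. With gRNA 10 in 22Rv1, MTF1 was at -0.25 (adjusted p = 0.179). In DU145 it was -0.04 and 0.15, and neither passed (adjusted p = 0.830 and 0.353). In PC3 it rose by 0.49 with each guide (adjusted p = 1.90e-05 and 1.37e-05). For gRNA 10 the difference in MTF1 passed between PC3 and 22Rv1 (0.70, adjusted p = 0.00225) and did not pass between DU145 and 22Rv1 (0.40, adjusted p = 0.0734) or between PC3 and DU145 (0.31, adjusted p = 0.171). SLC30A1, the zinc exporter of the plasma membrane and a textbook target of MTF1, rose in 22Rv1 with gRNA 10 (0.47, adjusted p = 0.0374), where 4 metallothioneins fell, and in PC3 with both guides (0.25 and 0.18). The 22Rv1 call of SLC30A1 was lost in 5 of 15 alternatives (edgeR adjusted p up to 0.129). Its changes in DU145, -0.06 and 0.18, did not pass.

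The gene lists are read against the shares of all genes called higher and lower, which were 25.6% and 22.9% with gRNA 1 and 20% and 20.6% with gRNA 10 in 22Rv1, 17.1% and 17.0% with gRNA 2 and 20.2% and 19.8% with gRNA 10 in DU145, and 32.1% and 31.5% with gRNA 2 and 37.9% and 35.6% with gRNA 10 in PC3. The lists are short, and a count near those shares says nothing about the list. Many of the counts in 22Rv1 and DU145 moved by over 1.5 times with other settings, the copper genes called higher with 22Rv1 gRNA 1 from 0 to 5. Among 11 genes of the metal and oxidative stress response, MTF1 and SLC30A1 included, 3 were higher and 1 lower in each guide contrast of 22Rv1, near the shares over all genes for the higher ones. HMOX1, which breaks down heme, rose by 0.66 and 0.72 there, while in DU145 it fell (-1.04 and -1.0). DU145 had 2 higher and 1 lower with gRNA 2 and 2 higher and 2 lower with gRNA 10. The heat shock gene HSPA1A was called higher with both guides there (2.29 and 1.48). Its value with gRNA 2 was 1.46 without gRNA 2 replicate 3, and its call with gRNA 10 was lost in 7 of 15 alternatives (edgeR adjusted p up to 0.113). In PC3, 3 were higher and 4 lower with gRNA 2 (median -0.06), and 9 higher and 1 lower with gRNA 10 (median 0.43, against 0.01 over all genes). There GCLM, a subunit of the enzyme that starts glutathione synthesis, rose (1.06 and 1.5) and SLC7A11, the cystine importer, fell (-1.89 and -0.27).

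Of 9 zinc exporters of the SLC30 family tested in 22Rv1, 1 was higher and 3 lower with gRNA 1, beside 25.6% and 22.9% of all genes, and 1 was higher and 1 lower with gRNA 10, beside 20% and 20.6%. SLC30A2 was called lower with both guides (-1.64 and -1.41), the gRNA 10 call being lost in 2 of 14 alternatives (edgeR adjusted p up to 0.0561). Of 12 importers of the SLC39 family, 2 were higher and 2 lower with each guide, beside the same shares. SLC39A5 was called higher (2.69 and 2.70), but its call was lost with both guides without 22Rv1 control replicate 1 (2.14 and 2.15) or control replicate 2 (2.14 and 2.16), and its value was 6.53 and 6.55 without control replicate 3 (adjusted p from 0.00201 to 0.0652). SLC39A8 was lower (-1.0 and -0.52), and its call with gRNA 10 was lost in 5 of 15 alternatives (adjusted p up to 0.102).

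In DU145, 1 exporter of 7 was higher and 2 lower with gRNA 2, beside 17.1% and 17.0% of all genes, and 1 was higher and 0 lower with gRNA 10, beside 20.2% and 19.8%. Of 11 importers there, 2 were higher and 3 lower with gRNA 2, and 1 higher and 2 lower with gRNA 10, beside the same shares. SLC39A10 was higher in both (0.61 and 1.06). SLC39A1 was called lower (-0.31 and -0.33), with the call lost in 8 of 15 alternatives for gRNA 2 and in 4 for gRNA 10 (edgeR adjusted p up to 0.101 and 0.0677). In PC3, 2 of 6 exporters were higher and 4 lower with gRNA 2, beside 32.1% and 31.5% of all genes, and 4 were higher and 0 lower with gRNA 10, beside 37.9% and 35.6%. Of the 11 importers tested in PC3, 2 were higher and 6 lower with gRNA 2, and 1 was higher and 9 lower with gRNA 10 (median -0.35), beside 31.5% and 35.6% of all genes lower. SLC39A13 (-0.68 and -0.35) and SLC39A14 (-0.47 and -0.58) were among those lower with both guides.

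Copper handling genes, 11 tested in each line, went 2 higher and 0 lower with gRNA 1 and 3 higher and 1 lower with gRNA 10 in 22Rv1, beside 25.6% and 20% of all genes higher. The mitochondrial phosphate and copper carrier SLC25A3 was higher with gRNA 10 (0.74), while its call with gRNA 1 (0.29, edgeR adjusted p = 0.0487) was lost in 12 of 15 alternatives (adjusted p up to 0.172). In DU145 the counts were 2 higher and 2 lower, and 3 higher and 2 lower, beside 17.1% and 20.2% of all genes higher. The copper chaperone ATOX1 was called higher there (0.36 and 0.42), but the call was lost in 10 of 15 alternatives for gRNA 2 and in 4 for gRNA 10 (adjusted p up to 0.132 and 0.0705). In PC3, 1 was higher and 6 lower with gRNA 2, and 2 were higher and 7 lower with gRNA 10, beside 31.5% and 35.6% of all genes lower, among them SLC31A2 (-0.56 and -0.46) and the copper pump ATP7B (-0.31 and -0.55).

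Of 10 genes for the glucocorticoid receptor and its targets, 5 were lower and 1 higher with each guide in 22Rv1 (medians -0.36 and -0.42), beside 22.9% and 20.6% of all genes lower, with KLF9 at -2.45 and -1.35. In PC3, 6 of 9 were higher and 1 lower with gRNA 2, and 5 higher and 2 lower with gRNA 10 (medians 0.34 and 0.32), beside 32.1% and 37.9% of all genes higher. SGK1 stood at 0.83 and 0.59 there and ERRFI1 at 0.71 and 0.51. In DU145 the counts were 2 higher and 2 lower with gRNA 2 and 3 higher and 1 lower with gRNA 10, beside 17.1% and 20.2% of all genes higher. CEBPD was called lower in both (-0.98 and -0.64), with the gRNA 10 call lost in 2 of 15 alternatives (edgeR adjusted p up to 0.0566).

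Genes around the cluster on chromosome 16 were set beside it because MT2A, MT1E and their neighbours share a stretch of the chromosome. The 43 neighbours are a list chosen with earlier results of these data known, and they do not cover every gene of the stretch. They span 3.34 Mb, 9 before and 34 after the cluster. In the libraries labelled DU145 gRNA 10, 20 of 34 tested neighbours were lower and 3 higher, beside 19.8% and 20.2% of all genes, and their median change was -0.42, against 0.0009 over all genes. The lower ones lay on both sides, 3 of 6 before the cluster and 17 of 28 after it, and included PLLP (-1.84) and NLRC5 (-0.64). Within that stretch MT2A was higher (0.54), a call lost in 7 alternatives, and MT1M lower (-2.03), testable only through its control libraries. MT1F (-0.59), MT1E (-0.17) and MT1X (-0.10) were below control and did not pass. Of the other metallothionein genes in the cluster, MT1L was called lower (-1.20), while MT1A (-0.29) and MT1DP (-0.53) did not pass. With DU145 gRNA 2, 8 neighbours were lower and 6 higher, beside 17.0% and 17.1% of all genes, with a median of -0.01, while MT2A rose by 2.06. Of 34 neighbours tested in 22Rv1, 8 were higher and 6 lower with each guide, near the 25.6% and 22.9% of all genes with gRNA 1 and the 20% and 20.6% with gRNA 10. Of 33 tested in PC3, 4 were higher and 12 lower with gRNA 2, and 8 higher and 13 lower with gRNA 10, the lower ones near the 31.5% and 35.6% over all genes. ADGRG1, an adhesion receptor, was higher with every guide in 22Rv1 (3.44 and 2.36) and PC3 (1.52 and 1.44).

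**Figure D4:**
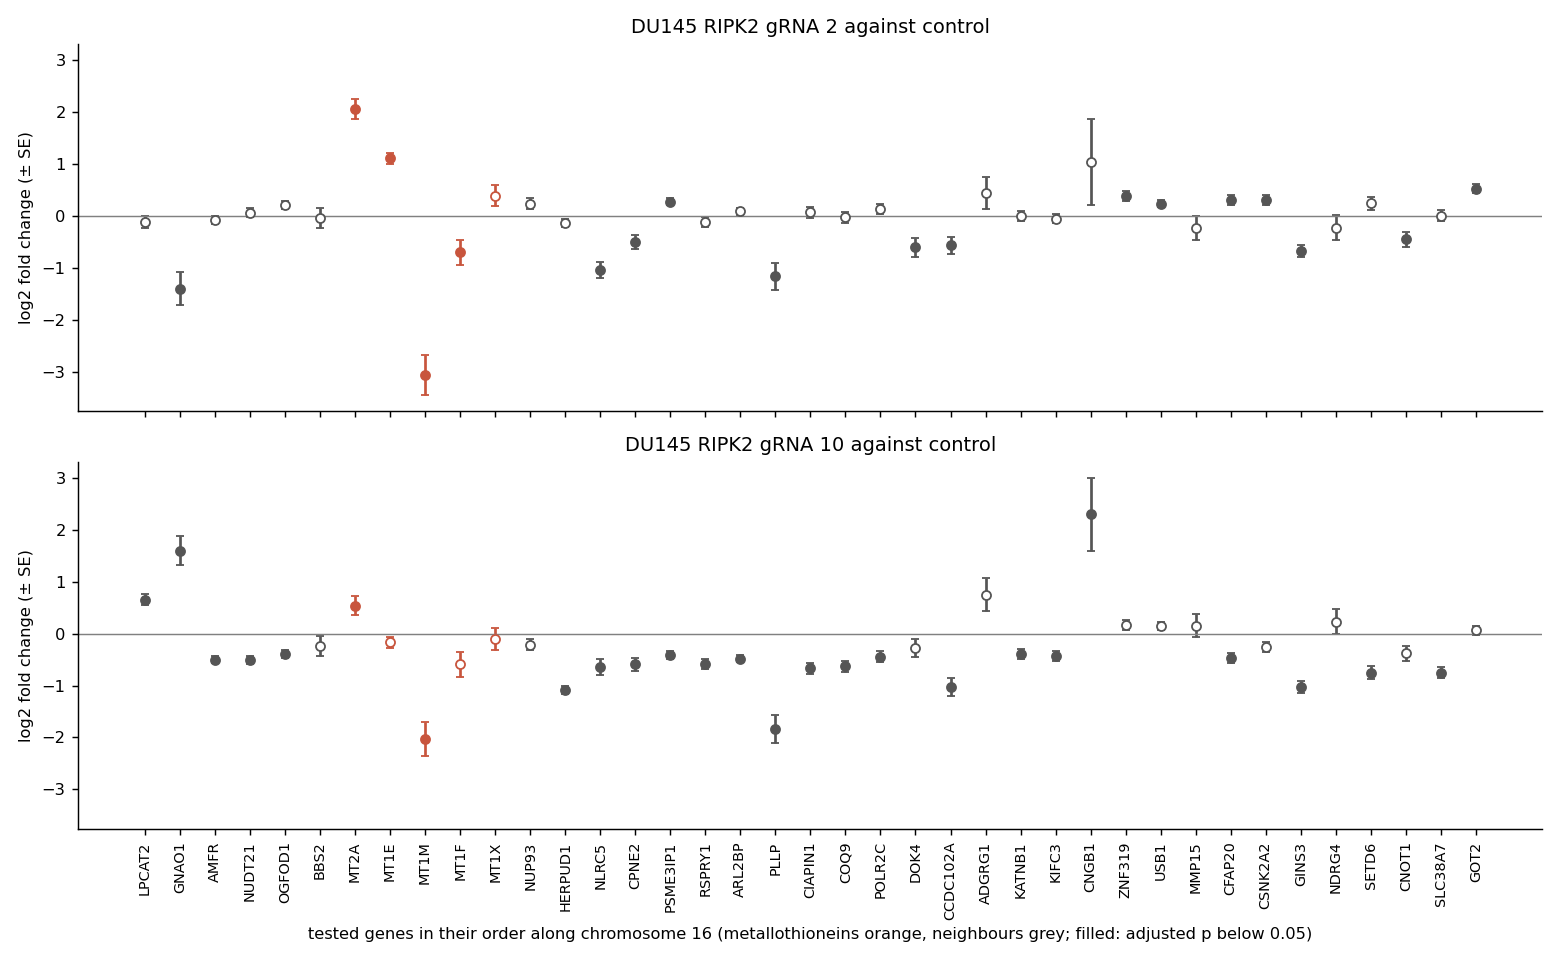
Log2 fold change with standard error of the metallothioneins (orange) and the tested neighbouring genes (grey) in DU145, in their order along chromosome 16, with filled symbols for an adjusted p below 0.05. With gRNA 10, 20 of 34 neighbours lie below 0 and pass the test. MT2A lies above 0 there, and MT1E, MT1M, MT1F and MT1X lie below it. With gRNA 2 the neighbours scatter around 0 (median -0.01) with MT2A at 2.06.

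Likeness of pattern was described over the 9 group means, which share a line's controls and scaling, for the 5 members listed in all lines. Among the 10 pairs of members, Pearson r of the log2 CPM means ran from 0.02 (MT1E and MT1M) to 0.92 (MT1E and MT1X). After the mean of each line was subtracted it ran from -0.23 (MT1M and MT1X) to 0.88 (MT1F and MT1M), with MT1E and MT2A at 0.81. Of 16315 other genes, SBNO2 (r = 0.975), DLX6-AS1 (0.972) and DDIT4-AS1 (0.970) were the most like the mean of the members. Within lines the closest were ATP2A1-AS1 (0.978), HEMK1 (0.972) and ACAA1 (0.966). These are the highest of 16315 values over only 9 means, where r this high can arise without a link, and no link was tested. The mean of the members also includes MT1E and MT1M, which had 0 or near 0 counts in PC3 control.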

How the data were processed

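The deposited tables hold raw read counts per gene symbol for each line, made by the authors from paired 150-base reads of strand-specific mRNA libraries, per the labels' protocols. The submitters' processing notes name STAR, edgeR, FastQC and hg38, without versions or roles, and the counting program, the annotation and the treatment of reads that fit more than 1 gene are not given in the sources used here. Groups came from the sample titles. Each line was fitted on its own over 9 libraries with edgeR 4.0.16 (R 4.3.3, limma 3.58.1): TMM factors, filterByExpr at its settings of 10 counts per library and 15 over all, a robust quasi-likelihood F test and Benjamini-Hochberg adjustment over all genes tested, called below 0.05. A second edgeR model over 27 libraries compared lines. The log2 fold changes are the fitted ones, and CPM are counts over the TMM-scaled total. Totals of 17958558 to 20650819 counts and 3 libraries per group set the precision, and intervals on counts cover counting error only. The fit was tested on simulated data with known changes. Replicate numbers did not pair the libraries: of 27 correlations between same-numbered libraries of a line, from -0.266 to 0.406, 5 passed 0.1. These numbers are those of the titles. Some library names carry other numbers, and pairing by those was not tested. No pair of libraries agreed within sampling noise (lowest chi-square per degree of freedom 1.82).

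Named with values were the 6 members, other metallothioneins that averaged 10 or more counts in some group, RIPK2, MTF1, SLC30A1, up to 2 genes per list and line called in the same direction in both guide contrasts, and the 3 genes most like the members in pattern. KLK3, VIM, ALB, PECAM1, PTPRC and CD3E were markers, and 1 further marker is not reported here. The members and lists were chosen with earlier results of these data known. Alternatives were RLE scaling, DESeq2 1.42.0, no filter or 10 counts in every library, only the groups compared, a replicate block, each library left out and, chosen after seeing the data, both libraries that stand apart left out. Loci and coding sequences were read from GENCODE 29, promoters from the RefSeq table. Figures used matplotlib 3.10.9 and tables pandas 2.3.3 under Python 3.11.15.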

Additional observations from a re-analysis of the deposited data

Results flagged for a closer look

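The change against control with the same guide differed between lines for 4 members in the test of the difference itself (edgeR, 27 libraries, Benjamini-Hochberg over 16322 genes). With a single group per guide and line, differences between lines and between populations cannot be told apart. For gRNA 10, DU145 minus 22Rv1 gave log2 differences of 3.10 for MT1E (adjusted p = 6.68e-10) and 1.79 for MT2A (adjusted p = 4.41e-08), 2 of 5 members, beside 44.7% of all genes. PC3 minus 22Rv1 gave 3.19 for MT1F (adjusted p = 2.26e-06), 8.88 for MT1M (adjusted p = 8.47e-07) and 1.68 for MT2A (adjusted p = 9.36e-08), beside 47.6% of all genes. PC3 minus DU145 gave 2.47 for MT1F (adjusted p = 4.68e-05) and 7.69 for MT1M (adjusted p = 7.22e-09), beside 48.1%. For gRNA 2, PC3 minus DU145 gave 3.20 for MT1F (adjusted p = 1.52e-06), 7.73 for MT1M (adjusted p = 1.08e-07) and -1.04 for MT2A (adjusted p = 0.000123), beside 35.9%.

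The MT1M differences rest on 1 count over the PC3 control libraries, and those against 22Rv1 also on 1 count over 22Rv1 gRNA 10, so their fitted size depends on the prior count. For MT1E no difference that involves PC3 could be estimated, since its control and gRNA 10 libraries there held 0 counts. RIPK2 was at 81.9% of control in the libraries labelled DU145 gRNA 10, against 32.3% in 22Rv1 and 45.1% in PC3.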

How the results depend on the processing

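Of 1567 alternative values for the 69 member log2 values, 1515 kept direction and side of the threshold, 29 no longer passed, 18 newly passed and 5 changed sign. The sign changes were in values that did not pass. With a library left out, MT1X in 22Rv1 gRNA 1 ran from -0.51 to 0.28 (0.16 without gRNA 1 replicate 1) and MT1X in DU145 gRNA 10 from -0.21 to 0.012. MT1F in DU145 gRNA 10 against gRNA 2 ran from -0.17 to 0.27. MT1X in PC3 against 22Rv1 control was 0.15 with the replicate block. SLC30A1 and MTF1, which are not among the 69 values, also changed sign with a library left out. SLC30A1 ran from -0.30 to 0.0018 in 22Rv1 gRNA 1 and from -0.29 to 0.15 in DU145 gRNA 2, and MTF1 in DU145 gRNA 2 from -0.17 to 0.070. The cause was not tested.

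The count of members changed in DU145 gRNA 10, 2, was 1 with no filter, 1 with at least 10 counts in every library, 4 with only the groups compared, and 1 to 4 with a library left out. Requiring 10 counts in every library left MT2A as the only testable member in PC3 and between lines: the counts were then 1 in each PC3 contrast and each comparison of controls, 1 for the gRNA 10 differences of DU145 and of PC3 from 22Rv1, 0 between PC3 and DU145, and 1 for gRNA 2. The DU145 minus 22Rv1 count for gRNA 10, 2, was 4 with both libraries that stand apart left out and 2 to 4 with a library left out, with 4 without 22Rv1 control replicate 2.

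With the replicate block, 66 of the 69 values kept their call, MT1F in DU145 gRNA 2 no longer passed (-0.72, edgeR adjusted p = 0.0603) and MT1X in 22Rv1 gRNA 10 passed (-1.17, adjusted p = 0.0381). The block used the replicate numbers of the titles, which did not pair the libraries, and pairing by the library names was not tested.

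The share of all genes called moved by over 1.5 times with no filter in each guide contrast, to 29.8%, 24.8% and 21.7% in 22Rv1 (gRNA 1, gRNA 10 and gRNA 10 against gRNA 1; 48.5%, 40.6% and 35.6% as reported), to 20.4%, 25.2% and 24.6% in DU145 (34.0%, 40.0% and 38.8%) and to 41.5%, 48.5% and 48.5% in PC3 (63.6%, 73.5% and 73.4%). With no filter the base was all 24379, 23532 and 23462 listed symbols of 22Rv1, DU145 and PC3. With the filter it was 15198, 14908 and 14718 genes. The larger base lowers a share by itself, so these drops do not show a loss of calls. The share for DU145 gRNA 10 was 66.2% with only the groups compared, and that for DU145 gRNA 2 ran from 21.5% to 45.8% with a library left out.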
